A study of Mus musculus with 8 samples.

Results

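The 38 genes described here are imprinted genes of the mouse, matched by symbol in a table of RNA levels in embryonic hearts; each was found, with 1 entry, among the 23846 entries of the table. Of the 38, 17 are known to be expressed from the maternal allele and 21 from the paternal allele, and they lie in 15 imprinted domains on 9 chromosomes. The 8 libraries were made from poly(A) RNA of whole hearts at embryonic day 11.5 (E11.5). The 4 cKO libraries came from Ogt f/y; TnT-Cre embryos, in which floxed Ogt, the gene for the enzyme that attaches O-GlcNAc to proteins, is deleted by a Cre driven by the cardiac troponin T promoter, that is, in cardiomyocytes. The 4 control libraries came from littermates whose genotype is labelled as control and whose titles call them WT, without naming alleles. Other cells of the heart keep an intact Ogt gene in the cKO. The strain is labelled B6, whereas the methods of the study give a background mixed from 129/SvJ and C57BL/6J. How many hearts went into a library is not labelled, so p-values measure only the spread between these libraries, which may be technical.

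Imprinted genes carry a DNA methylation mark that was set in the egg or in the sperm, and as a result are transcribed mainly or wholly from one parental copy. They lie in clusters, each governed by an imprinting control region and often by a long noncoding RNA, and neighbouring genes in a cluster can be expressed from opposite alleles. Many of those expressed from the maternal copy, such as Cdkn1c, Grb10, Phlda2 and H19, hold back growth, while many of those expressed from the paternal copy favour it. The values give the summed RNA of both alleles and cannot tell them apart. Imprinting of 8 members is known only in the brain, the placenta or endocrine tissue: Copg2, Ppp1r9a, Calcr, Ascl2, Ube3a, Gnas, Peg13 and Trappc9.

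Levels are in FPKM, mapped fragments scaled to the length of the transcript and to the total of the library, a measure that allows genes of different length to be compared. Differences are given as log2 fold changes of cKO over control on log2(FPKM + 0.5), from a limma fit over the 12629 entries with a mean of at least 1 FPKM; a gene was called higher or lower where its Benjamini-Hochberg adjusted p over all these entries was under 0.05. Of all entries tested, 30.7% were called, 15.9% higher and 14.9% lower in cKO. The target gene itself was at 41.6, 43.3, 37.5 and 46.2 FPKM in control libraries 1 to 4 and at 20.1, 21.6, 24.7 and 21.5 FPKM in cKO libraries 1 to 4 (exact two-sided permutation p = 0.0286, the smallest that 4 libraries against 4 allow). Relative depth, read from the steps between low values, was 1 to 1.22 in control and 1.12 to 1.25 in cKO libraries, with control 1 set to 1.

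Of the 29 members that passed the filter on low values, 13 (44.8%) were called, 6 higher and 7 lower in cKO. The largest change was that of Zim1, and it was the only called member past 1.5-fold. Higher in cKO were Zim1, Peg12, Snrpn, Zrsr1, Nnat and Mirg. Lower were Copg2, Ppp1r9a, Cdkn1c, Plagl1, Grb10, Mest and Gnas, among which are 5 of the 6 members with the highest mean levels. The 9 members under 1 FPKM had no call in this fit, and Calcr among them was 5.13 times as high in cKO as in control. The count of members called higher was 3 without control 2, control 4, cKO 3 or cKO 4, and that of members called lower was 4 without control 1, control 2, control 4, cKO 2 or cKO 4. The controls and the cKO libraries did not overlap for 12 of the 29 members, against 32.8% of all entries tested.

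**Figure D1:**
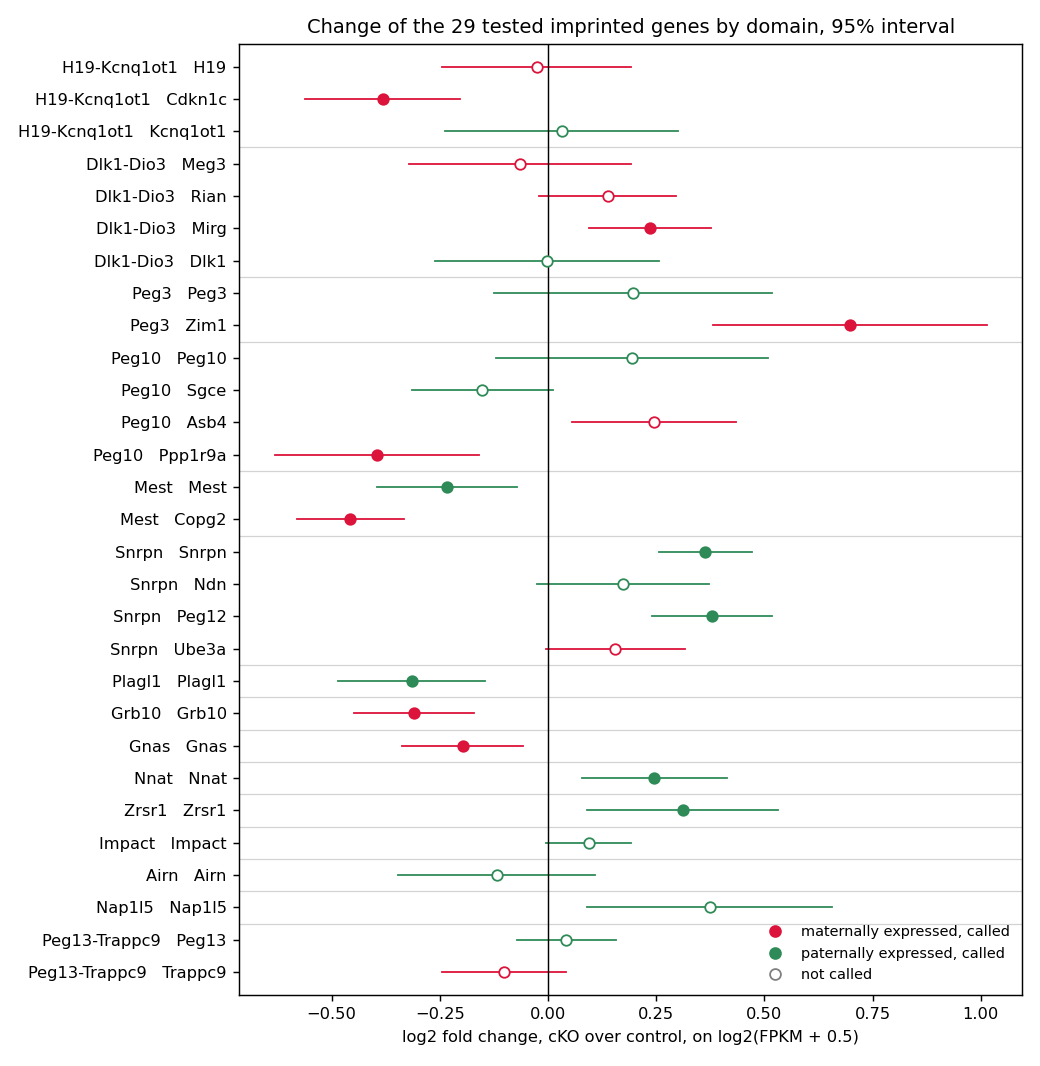
Log2 fold change of cKO over control on log2(FPKM + 0.5) for the 29 imprinted genes tested, grouped by domain (left part of each label), with 95% intervals from the limma fit; filled points were called, red marks maternally and green paternally expressed genes. Zim1 lies farthest to the right at 0.70 and Copg2 farthest to the left at -0.46. Members of one domain are found on both sides of 0 in the H19-Kcnq1ot1, Dlk1-Dio3, Peg10 and Peg13-Trappc9 domains.

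Sequences are shown for the promoters of the genes with the largest changes (Calcr and Zim1), of the neighbours Mest and Copg2, which were both lower, and of Snrpn, whose domain held no member that was lower. They are 300 bases each, 250 before and 50 after a transcription start site, 5′ to 3′ on the strand of the gene, from RefSeq (GRCm38.p6). Capitals mark TGCCGC, the core letters bound in its methylated form by ZFP57, a zinc finger protein that keeps imprints in the early embryo, or their reverse complement GCGGCA. For each gene only the first stretch holding these letters is shown. Calcr, Mest and Snrpn also have promoter stretches at other start sites without them.
Calcr, chr6:3763574-3763873, minus strand: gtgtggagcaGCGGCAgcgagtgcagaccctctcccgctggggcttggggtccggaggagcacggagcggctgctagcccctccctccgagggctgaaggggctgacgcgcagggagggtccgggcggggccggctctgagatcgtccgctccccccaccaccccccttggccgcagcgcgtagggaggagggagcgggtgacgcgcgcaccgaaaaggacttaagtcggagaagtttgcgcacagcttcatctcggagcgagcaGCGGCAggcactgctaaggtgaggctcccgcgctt
Zim1, chr7:6696383-6696682, minus strand: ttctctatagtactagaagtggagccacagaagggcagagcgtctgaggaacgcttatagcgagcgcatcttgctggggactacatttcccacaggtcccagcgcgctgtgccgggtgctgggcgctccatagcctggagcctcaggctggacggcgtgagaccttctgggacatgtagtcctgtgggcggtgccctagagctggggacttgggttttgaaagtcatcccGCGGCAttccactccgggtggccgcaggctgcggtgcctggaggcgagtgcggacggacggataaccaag
Snrpn, chr7:60005150-60005449, minus strand: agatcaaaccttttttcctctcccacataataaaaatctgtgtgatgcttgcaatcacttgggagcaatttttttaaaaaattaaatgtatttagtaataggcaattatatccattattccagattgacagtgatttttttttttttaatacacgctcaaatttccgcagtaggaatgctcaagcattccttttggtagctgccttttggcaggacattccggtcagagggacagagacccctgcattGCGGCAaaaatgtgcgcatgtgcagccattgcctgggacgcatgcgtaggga
Mest, chr6:30737800-30738099, plus strand: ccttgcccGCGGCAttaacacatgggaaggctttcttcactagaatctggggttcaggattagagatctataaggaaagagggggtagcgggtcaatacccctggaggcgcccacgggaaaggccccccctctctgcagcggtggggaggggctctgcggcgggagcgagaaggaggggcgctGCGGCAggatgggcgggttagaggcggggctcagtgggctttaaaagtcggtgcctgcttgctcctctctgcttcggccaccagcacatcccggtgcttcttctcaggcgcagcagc
Copg2, chr6:30896745-30897044, minus strand: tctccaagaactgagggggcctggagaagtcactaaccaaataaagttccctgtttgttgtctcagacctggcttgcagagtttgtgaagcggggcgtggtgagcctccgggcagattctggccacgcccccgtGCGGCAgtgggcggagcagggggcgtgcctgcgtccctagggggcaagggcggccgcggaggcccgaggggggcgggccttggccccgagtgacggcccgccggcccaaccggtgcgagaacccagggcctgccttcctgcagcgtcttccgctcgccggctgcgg
Promoters were given for 29 members, 42 windows in all since some genes have several start sites. Of these windows 11 (26.2%) held the 6 letters on either strand, largely overlapping windows of Mest among them. They lay in 10 genes, Meg3, Zim1, Calcr, Mest, Copg2, Snrpn, Plagl1, Grb10, Nnat and Nap1l5. Of all 32851 promoter windows of this length, 11.6% held the letters. The Calcr window shown held 29 CpG dinucleotides, the Copg2 window 25, the Zim1 window 20, the Mest window 17 and the Snrpn window 7, the last being also the median of all windows. A match of 6 letters is a description of these windows and does not show binding. Peg13, Trappc9, Peg10, Nespas, H19, Rtl1, Sgce, Impact and Cdkn1c had no entry.

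Several members are also hosts of miRNAs, which the poly(A) libraries did not measure in their mature form. Mature sequences from RefSeq (GRCm38.p6) are shown for the hosts with a change or, for H19, the highest level, with the seed, bases 2 to 8, in capitals.
mmu-miR-489-3p (Calcr): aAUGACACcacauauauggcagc
mmu-miR-653-5p (Calcr): gUGUUGAAacaaucucuacug
mmu-miR-335-5p (Mest): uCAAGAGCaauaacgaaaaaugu
mmu-miR-675-5p (H19): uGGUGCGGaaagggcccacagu
mmu-miR-453 (Mirg): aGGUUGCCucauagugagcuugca
mmu-miR-496a-5p (Mirg): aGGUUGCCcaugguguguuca
mmu-miR-410-3p (Mirg): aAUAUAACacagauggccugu
In all, 8 members contained 25 annotated hairpins on their own strand, 14 of them in Mirg. Among the 47 mature miRNAs of these hairpins only 1 seed was shared, GGUUGCC, by mmu-miR-453 and mmu-miR-496a-5p, both from Mirg. Hosts were assigned by gene spans in GENCODE. The measured Mirg entry starts at position 109734980, after the mature sequences of mmu-miR-382, mmu-miR-134, mmu-miR-668 and mmu-miR-485-3p, which thus lie outside it.

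The levels spanned more than 4 orders of magnitude between genes of the set. H19, a noncoding RNA, was the most abundant member and accounted for 0.58% to 0.66% of the summed FPKM of a library. With it, 7 members were at 100 FPKM or more (H19, Mest, Gnas, Cdkn1c, Grb10, Plagl1 and Meg3), 14 were between 10 and 100 FPKM, 8 between 1 and 10 FPKM, and 9 below 1 FPKM. All 38 together made up 1.27% to 1.37% of the summed FPKM in control and 1.19% to 1.24% in cKO libraries, groups that did not overlap.

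**Figure D2:**
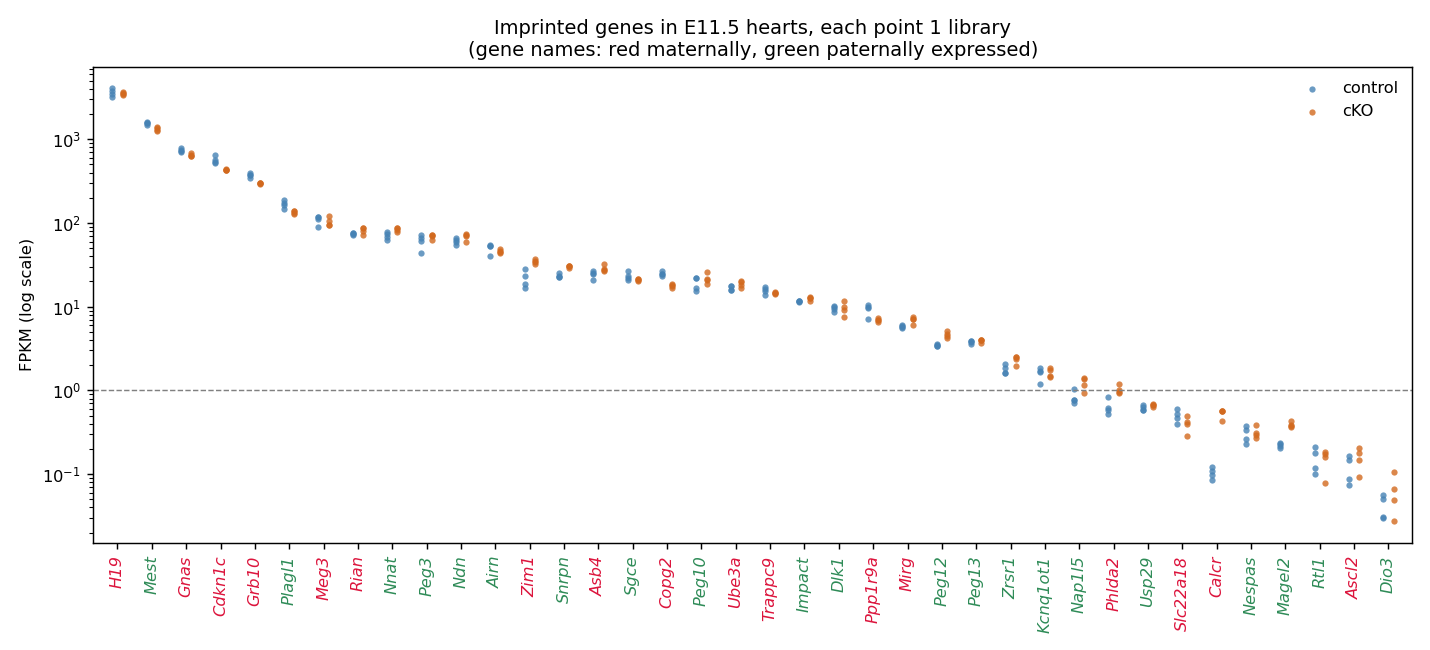
FPKM on a log scale of the 38 imprinted genes in each of the 8 libraries, ordered by mean level, control in blue and cKO in orange; red names are maternally and green names paternally expressed genes, and the dashed line is at 1 FPKM. H19 stands at the top between 3229 and 4070 FPKM, Dio3 at the bottom, and only for Calcr are the groups far apart on this scale.

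Cdkn1c, Grb10, Plagl1 and Gnas, abundant genes of growth control and hormone signalling, were lower in cKO. Cdkn1c encodes p57Kip2, an inhibitor of cyclin-dependent kinases. It was at 569, 529, 647 and 514 FPKM in control libraries 1 to 4 and at 443, 427, 429.8 and 426 FPKM in cKO libraries 1 to 4. Every cKO library lay below every control library, and the cKO libraries were much closer to each other than the controls were. The mean was 23.6% lower, with a log2 fold change of -0.38 (SE 0.079, 95% interval -0.56 to -0.20; limma adjusted p = 0.00728).

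Grb10 encodes an adaptor that dampens signalling from the insulin and IGF receptors. It was at 398, 376, 341 and 369.9 FPKM in the controls and at 300.4, 288, 304 and 302 FPKM in the cKO libraries, without overlap, with a log2 fold change of -0.31 (SE 0.061, 95% interval -0.45 to -0.17; limma adjusted p = 0.0059). Plagl1, a paternally expressed zinc finger transcription factor of the imprinted gene network, stood at 173, 165, 148 and 187 FPKM in the controls and at 129, 138, 131 and 141 FPKM in the cKO libraries. These groups did not overlap either, control 3 being closest to the cKO libraries, with a log2 fold change of -0.32 (SE 0.075, 95% interval -0.49 to -0.15; limma adjusted p = 0.0135). The call of Plagl1 was lost where haemoglobin and mitochondrial genes were left out before rescaling (limma adjusted p = 0.0642). Gnas, the gene for the stimulatory G protein alpha subunit, was at 710.0, 739.9, 789 and 732 FPKM in control and at 641, 629, 681 and 638 FPKM in cKO libraries. The Gnas entry holds several annotated start sites, so its value may sum further transcripts with that of this subunit. All 4 cKO libraries were lower than all 4 controls, and the change was small, with a log2 fold change of -0.20 (SE 0.062, 95% interval -0.34 to -0.057; limma adjusted p = 0.0399). The call of Gnas was lost when any one of control 1, control 2, control 4, cKO 1, cKO 2, cKO 3 or cKO 4 was left out, the limma adjusted p of the 8 such fits being 0.0137 to 0.119. It was lost as well with quantile normalisation (limma adjusted p = 0.144) and with the replicate number as a block (adjusted p = 0.0828).

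H19, a noncoding RNA that restrains growth, was not called. It was at 3229, 3741, 4070.2 and 3442 FPKM in the control and at 3424, 3584, 3649.9 and 3513 FPKM in the cKO libraries. All 4 cKO libraries lay within the range of the controls, with a log2 fold change of -0.026 (SE 0.096, 95% interval -0.24 to 0.19; limma adjusted p = 0.862). Igf2, its paternally expressed neighbour, was at 1567, 1658, 1534 and 1585 FPKM in control and at 1331, 1306, 1506 and 1383 FPKM in cKO libraries (log2 fold change -0.20, limma adjusted p = 0.0695, not called). In the other genes of this domain on distal chromosome 7, Kcnq1ot1, the paternal noncoding RNA that silences Cdkn1c in cis, was between 1.18 and 1.84 FPKM in control and between 1.45 and 1.84 FPKM in cKO libraries (0.031, limma adjusted p = 0.865). The Kcnq1ot1 groups overlapped.

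**Figure D3:**
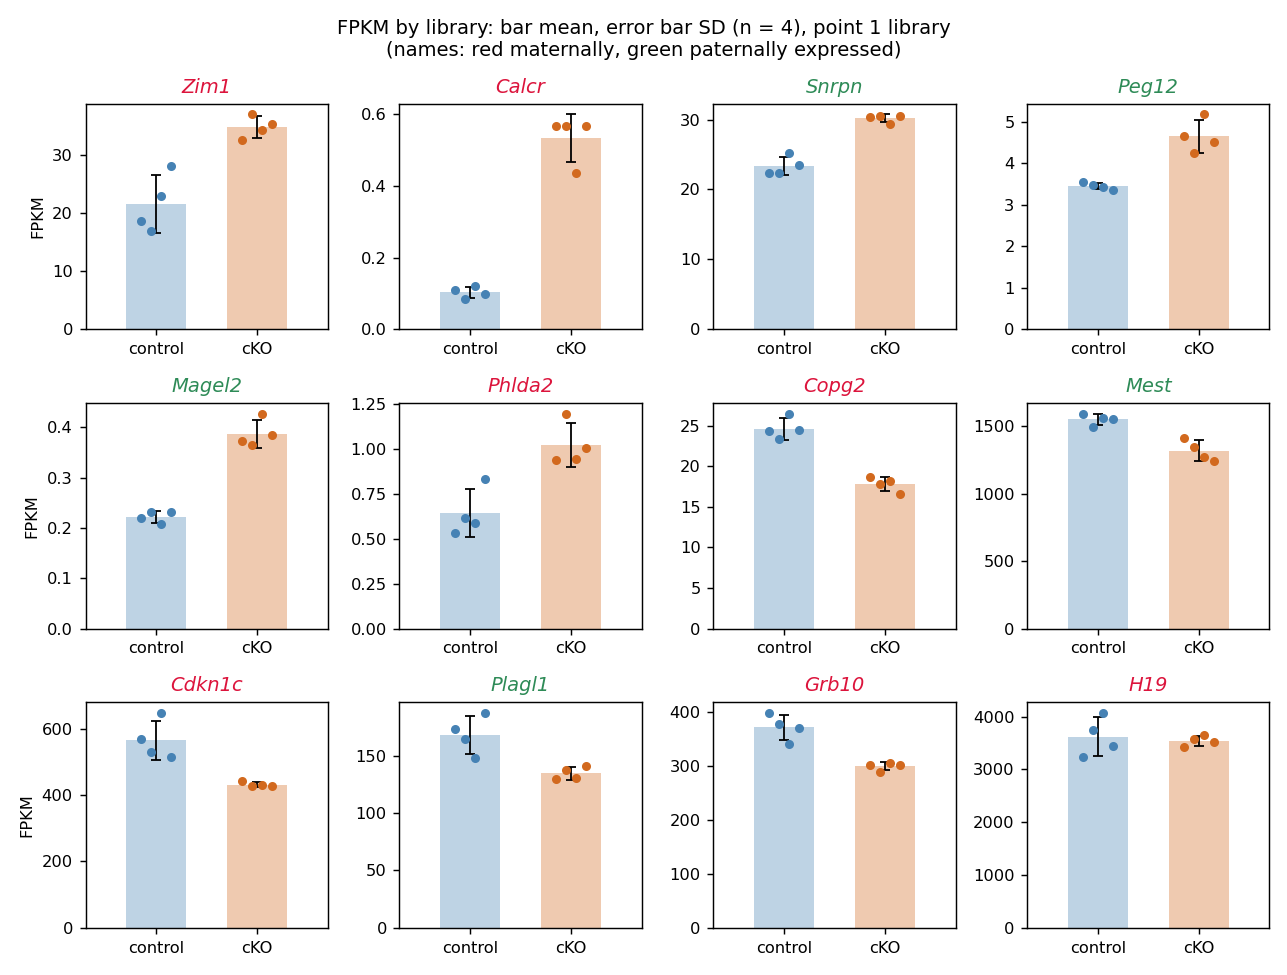
FPKM of 12 imprinted genes in each library (points), with the group mean (bar) and SD over 4 libraries (error bar), each axis starting at 0. The cKO points lie above all control points for Zim1, Calcr, Snrpn, Peg12, Magel2 and Phlda2, below them for Copg2, Mest, Cdkn1c, Plagl1 and Grb10, and among them for H19.

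The Mest domain on chromosome 6 held 2 members and both were lower. Mest, named as a mesoderm-specific transcript and encoding a protein of the alpha/beta hydrolase family, was at 1591, 1489, 1559.8 and 1556 FPKM in control and at 1412, 1346, 1274 and 1240.4 FPKM in cKO libraries. The groups did not overlap, with a log2 fold change of -0.23 (SE 0.071, 95% interval -0.40 to -0.072; limma adjusted p = 0.0361). This limma call was lost with no filter on low values (adjusted p = 0.134), with quantile normalisation (adjusted p = 0.143), with the replicate number as a block (adjusted p = 0.0982) and with the prefix in the sample descriptions, OGF355 or OGF373, as a covariate (adjusted p = 0.0604). The call of Mest was lost when any one of control 1, control 2, control 4, cKO 2, cKO 3 or cKO 4 was left out, the limma adjusted p of the 8 such fits being 0.014 to 0.123. Copg2, which encodes a gamma subunit of the COPI vesicle coat, was at 24.3, 23.3, 26.5 and 24.4 FPKM in control and at 18.6, 17.8, 18.2 and 16.6 FPKM in cKO libraries. It had the smallest adjusted p of the 29 members tested, with a log2 fold change of -0.46 (SE 0.054, 95% interval -0.58 to -0.33; limma adjusted p = 0.000582), and the call held in all 8 fits that left out 1 library. The log2 ratio of Copg2 to Mest was -6.03 to -5.88 in control and -6.24 to -6.13 in cKO libraries, so Copg2 was lower also relative to Mest. In the GENCODE annotation the 2 genes run towards each other and share 912 exon bases on opposite strands, 17.8% of the Copg2 exon bases. The entries of the table do not overlap, Mest ending at position 30748466 and Copg2 spanning 30809558 to 30896760. The shared stretch thus lies outside the Copg2 entry, and Mest was far more abundant. Whether strand was used in counting is not stated for these values.

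In the Snrpn domain on chromosome 7, the region of the Prader-Willi and Angelman syndromes in human, the 4 members tested all had a positive change and 2 were called. Over all entries tested, 6749 of 12629 had a positive change and 15.9% were called higher. Snrpn encodes SmN, a spliceosomal protein of brain and heart. It was at 22.4, 22.4, 25.2 and 23.5 FPKM in control and at 30.3, 30.5, 29.4 and 30.5 FPKM in cKO libraries. Every cKO library was above every control, with a log2 fold change of 0.36 (SE 0.048, 95% interval 0.26 to 0.47; limma adjusted p = 0.00089), and the gene was called in all 8 fits that left out 1 library. Snurf, which shares its transcript with Snrpn and 10% of the Snrpn exon bases, was at 1.19, 1.24, 1.42 and 1.34 FPKM in control and at 1.64, 1.63, 1.60 and 1.64 FPKM in cKO libraries (limma adjusted p = 0.032, higher; named after its values were seen).

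Peg12, also known as Frat3 and belonging to a family of GSK3-binding proteins, was at 3.54, 3.48, 3.43 and 3.35 FPKM in control and at 4.66, 4.25, 5.18 and 4.51 FPKM in cKO libraries. The 4 controls lay close together and the cKO libraries were all above them, with a log2 fold change of 0.38 (SE 0.061, 95% interval 0.24 to 0.52; limma adjusted p = 0.00238). Magel2, a MAGE family gene, was low throughout, at 0.219, 0.232, 0.207 and 0.232 FPKM in control and at 0.372, 0.365, 0.427 and 0.385 FPKM in cKO libraries. It was 1.74 times as high in cKO, and with no filter on low values it was called (log2 fold change 0.30, limma adjusted p = 0.00113). Ndn, the gene for necdin, a MAGE family protein of postmitotic cells, was at 61.9, 59.7, 66.7 and 54.4 FPKM in control and at 58.5, 70.4, 73.8 and 71.7 FPKM in cKO libraries. The groups overlapped through cKO 1, and the change of 0.17 was not called (limma adjusted p = 0.168), but was called when cKO 1 was left out (adjusted p = 0.0419) and with array weights (adjusted p = 0.0132). Ube3a, a ubiquitin ligase that is silenced on the paternal allele in neurons only, was between 15.7 and 17.8 FPKM in control and between 16.8 and 20.4 FPKM in cKO libraries (0.16, limma adjusted p = 0.13); it missed the threshold, but was called with array weights (adjusted p = 0.0053). Against Ube3a, Snrpn was higher in every cKO library, the log2 ratio being 0.41 to 0.51 in control and 0.58 to 0.85 in cKO.

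The Peg3 domain on proximal chromosome 7 gave the largest change among the members tested. Zim1, a maternally expressed zinc finger gene, was at 18.7, 16.8, 23.0 and 28.0 FPKM in control and at 32.6, 37.0, 34.2 and 35.3 FPKM in cKO libraries. All 4 cKO libraries lay above all controls, with a log2 fold change of 0.70 (SE 0.14, 95% interval 0.38 to 1.01; limma adjusted p = 0.00637). The sample descriptions carry the prefix OGF355 for control 1, control 2 and cKO 1 and OGF373 for the other libraries, whereas the column names of the table all begin with OGF373, and what the prefix stands for is not given. The Zim1 controls differed with the prefix in the descriptions, and the difference of cKO from control was 0.86 within OGF355 and 0.47 within OGF373 on the log2 scale. Peg3, the paternally expressed zinc finger gene next to it, was at 72.0, 67.0, 43.6 and 61.6 FPKM in control and at 71.1, 62.3, 72.2 and 70.1 FPKM in cKO libraries. Control 3 was well below the other 7 libraries, and the change of 0.20 (95% interval -0.13 to 0.52) was not called (limma adjusted p = 0.329). Within OGF355 the difference was 0.03 and within OGF373 0.39. The log2 ratio of Zim1 to Peg3 overlapped between the groups, at -1.99 to -0.92 in control and -1.13 to -0.75 in cKO. Usp29, a deubiquitinase gene, was between 0.58 and 0.69 FPKM in all 8 libraries.

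The Peg10 cluster on proximal chromosome 6 changed in both directions. Calcr, the calcitonin receptor gene, which is imprinted in the brain, was at 0.110, 0.0862, 0.122 and 0.0981 FPKM in control and at 0.567, 0.567, 0.435 and 0.566 FPKM in cKO libraries. All 4 cKO libraries were far above the highest control, and with no filter on low values the change was called (log2 fold change 0.77, SE 0.048, limma adjusted p = 0.000521), as it was in all 8 fits of that kind that left out 1 library. Since 0.5 is added before the logarithm, this log2 value understates the 5.13-fold ratio of the means. Read numbers are not part of the values, so the counting precision of a gene at this level is unknown. Among entries under 1 FPKM, 3.7% were called higher in this fit.

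Ppp1r9a, which encodes the actin-binding phosphatase scaffold neurabin and is imprinted in the placenta, was at 10.5, 10.04, 7.22 and 9.73 FPKM in control and at 6.94, 6.56, 7.26 and 6.98 FPKM in cKO libraries. Here the groups overlapped, since control 3 was just below cKO 3, with a log2 fold change of -0.40 (SE 0.10, 95% interval -0.63 to -0.16; limma adjusted p = 0.0203). The call of Ppp1r9a was lost when any one of control 1, control 2, control 4, cKO 2 or cKO 4 was left out, the limma adjusted p of the 8 such fits being 0.00031 to 0.0573. It was also lost where haemoglobin and mitochondrial genes were left out (limma adjusted p = 0.0742) and with no filter on low values (adjusted p = 0.0625). Asb4, an ankyrin repeat and SOCS box protein gene known from vascular cells, was between 20.8 and 26.3 FPKM in control and between 26.9 and 32.3 FPKM in cKO libraries. Its groups did not overlap, yet the change of 0.24 missed the threshold (limma adjusted p = 0.0546), but was called with median ratio scaling (adjusted p = 0.0487) and with haemoglobin and mitochondrial genes left out (adjusted p = 0.0468). Sgce, the gene for epsilon-sarcoglycan, was between 21.1 and 27.1 FPKM in control and between 20.3 and 21.4 FPKM in cKO libraries (-0.15, limma adjusted p = 0.144); it missed the threshold, but was called with haemoglobin and mitochondrial genes left out (adjusted p = 0.041) and with array weights (adjusted p = 0.0307). Peg10, derived from a retrotransposon and needed in the placenta, was between 15.2 and 22.0 FPKM in control and between 18.9 and 25.9 FPKM in cKO libraries (0.19, limma adjusted p = 0.322), with a difference of -0.05 within OGF355 and 0.43 within OGF373. Relative to Sgce, Asb4 was higher in every cKO library, with log2 ratios of -0.10 to 0.21 in control and 0.37 to 0.59 in cKO. Such ratios were also taken for further pairs of neighbours. The groups overlapped for Meg3 to Dlk1, Mirg to Meg3, Cdkn1c to Kcnq1ot1, H19 to Igf2 and Trappc9 to Peg13. They did not overlap for Ppp1r9a to Asb4.

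In the Dlk1-Dio3 domain on chromosome 12, Mirg alone was called. Mirg, the host of a large miRNA cluster, was at 6.02, 5.78, 5.90 and 5.56 FPKM in control and at 7.13, 6.12, 7.45 and 7.11 FPKM in cKO libraries. The lowest cKO library, cKO 2, was just above the highest control, with a log2 fold change of 0.24 (SE 0.062, 95% interval 0.095 to 0.38; limma adjusted p = 0.0204). The call of Mirg was lost when any one of control 2, control 4, cKO 1, cKO 3 or cKO 4 was left out, the limma adjusted p of the 8 such fits being 0.00648 to 0.0611. Rian, a host of small nucleolar RNAs from the same maternal chromosome, was at 72.4, 75.0, 73.5 and 75.5 FPKM in control and at 71.0, 81.3, 88.1 and 86.9 FPKM in cKO libraries. Its controls lay close together, cKO 1 below them and the other 3 cKO libraries above, and the change was not called (0.14, limma adjusted p = 0.169), but was called when cKO 1 was left out (adjusted p = 0.0245) and with array weights (adjusted p = 0.0388). Meg3, the noncoding RNA at the start of this maternal series, was at 117, 119, 89.1 and 113 FPKM in control and at 93.5, 95.5, 122 and 107 FPKM in cKO libraries. The groups overlapped fully (-0.065, limma adjusted p = 0.697). Of the paternally expressed genes, Dlk1, a transmembrane protein with EGF repeats, was between 8.59 and 10.2 FPKM in control and between 7.60 and 11.7 FPKM in cKO libraries (-0.0029, 95% interval -0.26 to 0.26, limma adjusted p = 0.987). Rtl1, a retrotransposon-derived gene of the placenta, was at most 0.21 FPKM, and Dio3, the deiodinase that inactivates thyroid hormone, at most 0.10 FPKM in any library.

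Members that stand alone in their domain here included 2 called higher. Nnat, which encodes neuronatin, a small protein of the endoplasmic reticulum membrane, was at 68.8, 73.2, 77.9 and 62.0 FPKM in control and at 86.1, 78.5, 86.7 and 82.4 FPKM in cKO libraries. The lowest cKO library was just above the highest control, with a log2 fold change of 0.25 (SE 0.074, 95% interval 0.078 to 0.41; limma adjusted p = 0.0347). The call of Nnat was lost when any one of control 1, control 2, control 4, cKO 1, cKO 3 or cKO 4 was left out, the limma adjusted p of the 8 such fits being 0.00872 to 0.0849. With no filter on low values Nnat was not called (limma adjusted p = 0.0723). Zrsr1, a retrogene related to the splicing factor U2AF, was at 1.62, 1.64, 2.09 and 1.83 FPKM in control and at 1.96, 2.39, 2.52 and 2.52 FPKM in cKO libraries. Control 3 was above cKO 1, so the groups overlapped, with a log2 fold change of 0.31 (SE 0.097, 95% interval 0.09 to 0.53; limma adjusted p = 0.0398). Zrsr1 lies within Commd1 on the other strand, shares 412 exon bases with it and has a related copy elsewhere, so part of its reads could be from those genes. The call of Zrsr1 was lost when any one of control 1, control 2, control 4, cKO 2, cKO 3 or cKO 4 was left out, the limma adjusted p of the 8 such fits being 0.0155 to 0.108. With no filter on low values Zrsr1 was not called (limma adjusted p = 0.0811).

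Airn, the paternal noncoding RNA that silences Igf2r in cis, was at 53.5, 53.2, 39.8 and 54.6 FPKM in control and at 43.8, 44.5, 49.2 and 46.2 FPKM in cKO libraries. The groups overlapped only through control 3, the lowest of all 8, and the change of -0.12 was not called (limma adjusted p = 0.406), but was called when control 3 was left out (adjusted p = 0.00648) and with array weights (adjusted p = 0.0074). Igf2r, which Airn overlaps on the opposite strand, was also lowest in control 3, at 389.7, 330.3, 211 and 335 FPKM in control and 314, 281, 284 and 302 FPKM in cKO libraries (limma adjusted p = 0.797). Nap1l5, a nucleosome assembly protein-like retrogene, was between 0.71 and 1.03 FPKM in control and between 0.93 and 1.40 FPKM in cKO libraries, and the change of 0.37 missed the threshold (limma adjusted p = 0.0507), but was called when control 3 or cKO 1 was left out (adjusted p = 0.0213 or 0.0273), with a pseudocount of 1 (adjusted p = 0.0474), with haemoglobin and mitochondrial genes left out (adjusted p = 0.0338), with no variance trend (adjusted p = 0.0301) and with array weights (adjusted p = 0.00333). Impact, an inhibitor of the kinase GCN2, was between 11.5 and 11.8 FPKM in control and between 11.7 and 13 FPKM in cKO libraries (0.094, limma adjusted p = 0.134); it missed the threshold, but was called when cKO 1 was left out (adjusted p = 0.04997) and with array weights (adjusted p = 0.0135). Trappc9, a subunit of the TRAPP vesicle tethering complex, was between 13.9 and 17.1 FPKM in control and between 14.0 and 14.8 FPKM in cKO libraries (-0.10, limma adjusted p = 0.256); it missed the threshold, but was called when control 3 was left out (adjusted p = 0.0226) and with array weights (adjusted p = 0.00607). Peg13, the noncoding RNA within Trappc9, was between 3.56 and 3.87 FPKM in control and between 3.67 and 3.99 FPKM in cKO libraries (0.042, limma adjusted p = 0.564).

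The low members of the distal chromosome 7 domain and of the Gnas domain completed the set. Phlda2, a pleckstrin homology domain gene that limits placental growth, was at 0.530, 0.616, 0.591 and 0.833 FPKM in control and at 0.941, 1.20, 0.946 and 1.00 FPKM in cKO libraries. The groups did not overlap, and with no filter on low values it was called higher (log2 fold change 0.42, limma adjusted p = 0.0278); this call was kept without control 4 and lost without any other library (adjusted p 0.0528 to 0.0763). It was also lost with quantile normalisation (limma adjusted p = 0.0584) and with the replicate number as a block (adjusted p = 0.0726). Slc22a18, an organic cation transporter family gene, was between 0.39 and 0.61 FPKM in control and between 0.29 and 0.49 FPKM in cKO libraries, without a call (limma adjusted p = 0.356). Ascl2, a transcription factor of the trophoblast, was at most 0.21 FPKM in any library and Nespas, the antisense RNA of Gnas, at most 0.38 FPKM. None of the 9 members under 1 FPKM was called lower in the fit with no filter, and 3 were called higher. Among all entries under 1 FPKM, 3.7% were called higher in that fit. These include entries such as Ins2, at 0.001 FPKM in every library, that could not be called, so the shares are not directly comparable.

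The maternally and the paternally expressed members were then set side by side. Among 13 maternally expressed members tested, 2 were higher and 5 lower, with a median log2 fold change of -0.07. Among 16 paternally expressed members, 4 were higher and 2 lower, with a median of 0.13, and the median of all entries tested was 0.02. Called in either direction were 53.8% of the maternal and 37.5% of the paternal members tested. Over all entries tested this share was 30.7%, with 15.9% higher and 14.9% lower. The ranges, -0.46 to 0.70 for the maternal and -0.32 to 0.38 for the paternal members, overlapped widely. Of the 5 lower maternal members, 3 (Copg2, Ppp1r9a and Gnas) are among those with imprinting in the brain, placenta or endocrine tissue only. Among members with broad imprinting, 2 of 8 maternal genes were higher and 2 lower, with a median of 0.06, and 4 of 15 paternal genes were higher and 2 lower, with a median of 0.17. With 1 library left out, the counts ran from 2 to 6 higher and 1 to 3 lower for the paternal members, and from 1 to 2 higher and 3 to 6 lower for the maternal members; 6 of the 8 libraries changed the paternal count of 2 lower to 1. No test was made over the 2 classes, since their members were chosen and share domains. Summed FPKM of the maternal members without H19 was 1928 to 2060 in control and 1654 to 1760 in cKO libraries, and that of the paternal members 2009 to 2120 and 1761 to 1909. With H19, the most abundant member, the maternal sum overlapped between the groups, at 5212 to 6131 FPKM in control and 5098 to 5409 FPKM in cKO libraries. Without it both sums were lower in every cKO library, and they are made up mostly of Gnas, Cdkn1c and Grb10 and of Mest.

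**Figure D4:**
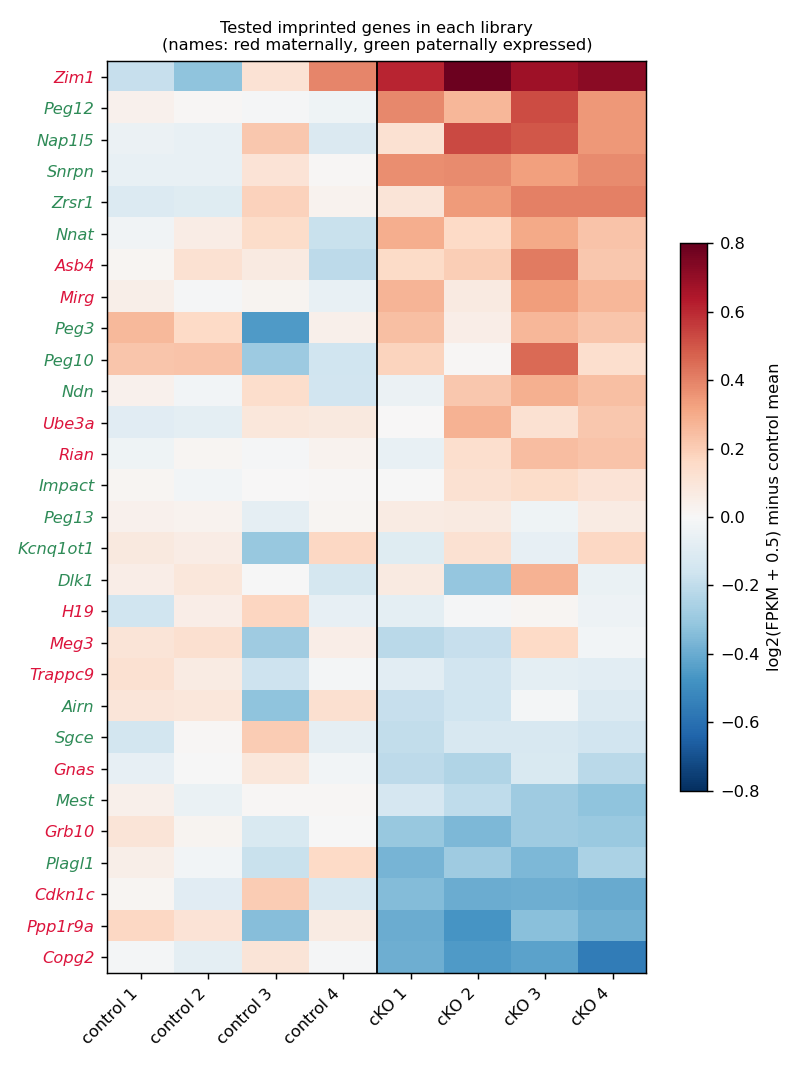
Log2(FPKM + 0.5) of the 29 tested imprinted genes in each library, minus the mean of the 4 controls, ordered by fold change; red is higher and blue lower, on a scale cut at 0.8 in both directions, and names are red for maternally and green for paternally expressed genes. Values ran from -0.56 to 0.79, the top rows from Zim1 down are red in the 4 cKO columns and the bottom rows up from Copg2 are blue there, while control 3 differs from the other controls in Peg3, Meg3, Airn and Ppp1r9a.

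Other imprinted genes, a list of 48 with 32 tested, showed 6 genes higher and 6 lower, with a median of -0.10. Over all entries tested, 15.9% were higher and 14.9% lower. The counts of this list were lowest, 1 and 1, without cKO 2. The smallest adjusted p among them were those of Osbpl5, an oxysterol-binding protein gene of the distal chromosome 7 domain (0.35, limma adjusted p = 0.000391), and of Pon2, a paraoxonase gene of the Peg10 cluster (-0.30, limma adjusted p = 0.00217). Tssc4 (-0.21, limma adjusted p = 0.022) and Mcts2, a retrogene within H13 (-0.23, limma adjusted p = 0.0248), were lower as well. Casd1, next to Sgce and named after its values were seen, was also lower (-0.24, limma adjusted p = 0.0258), so that the Peg10 cluster held Pon2, Casd1 and Ppp1r9a on the lower side and Calcr on the higher side.

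Of 30 genes that set or keep imprints, 26 were tested, and 3 were higher and 1 lower, with a median of 0.05. These counts stand beside 15.9% higher and 14.9% lower over all entries tested. Without cKO 4 none was called higher, and without control 3, 2 were called lower. Ezh2, the histone H3K27 methyltransferase of Polycomb complex PRC2, was at 32.0, 32.1, 31.2 and 29.5 FPKM in control and at 25.2, 23.7, 25.8 and 22.5 FPKM in cKO libraries, without overlap (-0.35, limma adjusted p = 0.00192). Higher were Kdm1b, a histone demethylase needed for maternal imprints in the oocyte (0.22, limma adjusted p = 0.0159), Ehmt2, the H3K9 methyltransferase G9a (0.23, limma adjusted p = 0.0174), and Hcfc1, a chromatin factor that OGT is known to modify and cleave (0.41, limma adjusted p = 0.0319). Trim28, the partner of ZFP57, and Cbx5, the heterochromatin protein HP1 alpha, the 2 most abundant of the list, had changes of -0.064 and -0.064 (limma adjusted p = 0.517 and 0.255).

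Markers of several cell types also differed between the groups, and in bulk samples fewer cells of a type and less RNA per cell cannot be told apart. The shares called over all entries tested were 15.9% higher and 14.9% lower. None of 10 cardiomyocyte markers was called, and 7 of 12 epicardial markers were higher (summed 224 to 244 FPKM in control and 287 to 326 FPKM in cKO). Lower were 5 of 10 endothelial markers (318 to 364 FPKM and 297 to 318 FPKM) and 4 of 9 smooth muscle markers tested (918 to 1096 FPKM and 651 to 784 FPKM). Myh11 of the smooth muscle list, under 1 FPKM and not tested, had a mean of 0.235 FPKM in control and 0.399 FPKM in cKO. Erythroid markers varied between libraries of 1 group (15529 to 59523 FPKM in control), and the sum of liver and yolk sac markers was 70.5 FPKM in cKO 3 against at most 7.26 FPKM in the other 7 libraries. The other cKO libraries, at 6.17 to 7.26 FPKM, also lay above the controls, at 4.71 to 5.98 FPKM. Of 4 liver and yolk sac markers tested, 1 was called higher, Rbp4 (limma adjusted p = 0.00368). Trophoblast markers summed to 33.7 to 39.1 FPKM in control and 35.7 to 41.4 FPKM in cKO. Most of this sum was Hand1 (mean 29.9 FPKM in control and 31.2 FPKM in cKO). All genes of that list except Hand1 and Plac1 were under 1 FPKM, so the sum does not show trophoblast RNA. The part of these cell types in the changes of the imprinted genes was not tested. Within each of the 2 prefixes of the sample descriptions, all 13 called members changed in the same direction as over all 8 libraries. They were called on these same libraries, so the shared direction is no separate support, and OGF355 holds cKO 1 alone of the cKO libraries. Of the 13, 7 (Zim1, Peg12, Snrpn, Copg2, Cdkn1c, Plagl1 and Grb10) were called in each of the 8 fits that left out 1 library.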

How the data were processed

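RNA was measured by poly(A) sequencing in 8 whole-heart libraries, 4 cKO and 4 control. Per the labels and the methods of the study, the authors made stranded libraries, aligned them to the mm10 genome (TopHat2 with Bowtie2) and ran Cuffdiff2; they deposited FPKM values per gene, and the annotation used is not given in the sources used here. Of the deposited cells, 1.32% hold a text code in place of a number, and such entries were left out, which kept 23521 of 23846. All 38 members had numbers in every library. FPKM are not counts, so depth in reads is unknown and no interval for counting error is given. The lowest deposited value is 0.001 FPKM.

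Entries averaging 1 FPKM or more were tested as log2(FPKM + 0.5) in R 4.3.3 with limma 3.58.1 (2 group means, variance trend, empirical Bayes, Benjamini-Hochberg over all 12629 entries, threshold 0.05). The script was tested on simulated data. Members under 1 FPKM have values from a fit with no filter. Ogt was tested with an exact permutation test. Alternatives were pseudocounts of 0.1 and 1, no filter or a minimum mean of 5 FPKM, scaling by median ratios or quantiles, leaving out the haemoglobin and mitochondrial genes, no variance trend, array weights, a replicate block, the prefix in the sample descriptions as a covariate or as 2 separate sets, and each library left out; those for members under 1 FPKM were chosen after seeing the data. Gene spans, strands and shared exon bases came from GENCODE (GRCm38, the same assembly as mm10), and sequences from RefSeq.

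The members and the lists were chosen with earlier results of these data known. The allele and tissue range of imprinting are from general knowledge. All members are named; called members and the 12 with the highest means have their value in each library, and of other lists up to 4 called genes with the smallest adjusted p and the 2 with the highest means are named. The table holds no columns of other samples.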

Additional observations from a re-analysis of the deposited data

Results flagged for a closer look

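The spread of the 38 members and of Ogt was checked within each group of 4 libraries, 78 sets of values in all. In 6 of these sets 1 library lay farther from the other 3 than Dixon's 95% critical value allows, where chance gives about 1 in 20. Calcr was lowest in cKO 3, at 0.435 FPKM, with the other cKO libraries between 0.566 and 0.567 FPKM, and still far above the controls. Snrpn was lowest in cKO 3 as well, at 29.4 FPKM against 30.3 to 30.5 FPKM. Peg13 was lowest in control 3 at 3.56 FPKM and in cKO 3 at 3.67 FPKM. Airn was lowest in control 3, at 39.8 FPKM against 53.2 to 54.6 FPKM. Trappc9 was lowest in cKO 2, at 14.0 FPKM against 14.7 to 14.8 FPKM. The library cKO 3 was also the one with the high sum of liver and yolk sac markers (70.5 FPKM); its part in these values was not tested.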

How the results depend on the processing

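The directions and calls of Zim1, Peg12, Snrpn, Copg2, Cdkn1c and Grb10 stayed as reported under every alternative in which each was tested, Peg12 being left out by the minimum mean of 5 FPKM. Array weights raised the counts of all entries called to 3468 higher and 3114 lower, of the members called higher to 11, and by class to 7 higher and 4 lower among paternal and 4 higher among maternal members; 10 other imprinted genes were then lower, and 6 of the genes that set or keep imprints were higher and 3 lower. With each library left out in turn, the counts over all entries were 1353 to 2802 higher and 1296 to 2149 lower, those of the members 3 to 8 higher and 4 to 9 lower, of paternal members 2 to 6 and 1 to 3, of maternal members 1 to 2 and 3 to 6, of other imprinted genes 1 to 5 and 1 to 9, and of genes that set or keep imprints 0 to 4 and 1 to 2. A mean of at least 5 FPKM left 2 paternal members higher, as Peg12 and Zrsr1 are below that mean. The paternal members lower were 1 with no filter, with quantile normalisation, with the prefix covariate and with the replicate block, Mest being the one lost. With no filter 4 maternal members were higher, Calcr and Phlda2 being added. Among members with broad imprinting only, 2 maternal members were lower, since Copg2, Ppp1r9a and Gnas are not counted there. The cause of the other shifts was not tested.

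Signs reversed only for members that were not called. Leaving out single libraries gave log2 fold changes of -0.079 to 0.032 for H19, -0.070 to 0.087 for Kcnq1ot1, -0.097 to 0.098 for Dlk1, -0.044 to 0.050 for Rtl1 (0.039 without control 1 and 0.015 without control 2) and -0.023 to 0.067 for Nespas (-0.0011 without control 1 and -0.018 without cKO 4). Dlk1 was 0.0046 with haemoglobin and mitochondrial genes removed and 0.028 with the prefix covariate, Rtl1 0.030 and Nespas -0.0081 with the prefix covariate, Nespas -0.043 and Usp29 -0.00096 with quantile normalisation, and Peg10 -0.010 with array weights. Under the replicate block, 1741 entries were higher and 1702 lower, and 6 members were higher and 5 lower, Gnas being lost besides Mest. Deviations from the group mean correlated at 0.127, 0.158, -0.012 and 0.013 between libraries of the same number. Between libraries of different numbers the correlations were -0.123 to 0.102, below the values for numbers 1 and 2. Since the other numbers gave no such excess and no pairing is labelled, the numbers were taken as names. A pairing of some libraries was not excluded. Depth in reads, which limits the members under 1 FPKM most, is unknown.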
